A study of Rattus norvegicus with 35 samples.

Results

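Livers of rats fed myclobutanil at 2000 ppm were compared with livers of rats fed the same fungicide at 500 ppm, a 4-fold difference in dietary level. The comparison used the 9 arrays of these 2 groups that hold values, of the 32 arrays with values in the series: 4 arrays at 2000 ppm and 5 at 500 ppm. The arrays were found by the treatment and level in their sample titles. All 31042 probe sets of the Affymetrix rat genome array were tested, after the 57 Affymetrix control probe sets had been left out. The animals were Wistar Han rats. Exposure through the feed ran from gestation day 6 to postnatal day 92, the age that the extraction protocol gives for the tissue, and the controls (7 arrays) were labelled as fed 0 ppm. The sources used here give neither the sex of the animals nor their litters. The design text calls the arrays biological replicates, so that p-values measure the spread between animals. They take the animals as independent, which cannot be checked where litters are not given. A further array at 2000 ppm, replicate 1, holds no values, was marked by the submitters as outside their final analysis, and was not used here. Testis is the tissue named in the labels' extraction protocol, but the sample titles and the protocol for labelling RNA say liver.

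Myclobutanil is a triazole fungicide. Triazoles block the fungal sterol 14-alpha-demethylase, a cytochrome P450 encoded by Cyp51 in animals, and in rodent liver they are known as activators of the nuclear receptors CAR and PXR. CAR and PXR raise the transcription of drug-metabolising genes: phase I oxidation (the Cyp2b and Cyp3a families, and their electron donor Por), phase II conjugation (Ugt, Sult and Gst enzymes) and export pumps such as Abcc3. The question addressed by a comparison of 2 levels is whether such genes, or any others, differ between the lower and the higher exposure.

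In brief, 0 of 31042 probe sets (0%) passed an adjusted p of 0.05 between the levels. Cyp2b, the classical CAR readout, scored above every control in all 9 treated arrays, and the 500 and 2000 ppm arrays overlapped. In 3 of the 4 arrays at 2000 ppm, scores of Cyp1a1, Ces2c and the drug pumps Abcc3 and Abcb1a lay above all 500 ppm arrays. Scores of the lipid synthesis genes Scd and Fasn lay below them in the same 3 arrays. Over all 31042 probe sets, these 3 arrays all lay above the 500 ppm arrays in 329 and below them in 1474. The remaining array at 2000 ppm, replicate 5, lay within the range of the 500 ppm arrays in Ces2c, Abcc3, Abcb1a, Scd and Fasn, and below them in Cyp1a1. With it included, these differences did not pass the test, nor did they without it.

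The deposited value is 1 score per probe set and array, of unstated scale and log base, so differences are given as score differences and not as fold changes. Values of the 500 ppm group are listed below in the order of replicates 1 to 5, and those of the 2000 ppm group in the order of replicates 2 to 5. Hepatocyte transcripts were abundant: 0 of 15 hepatocyte markers had a mean score below 0, and albumin, at 5.57, had the highest mean score of any gene. RNA quality differed between the arrays. Affymetrix control probe sets at the 3′ and the 5′ end of GAPDH and β-actin give a 3′ minus 5′ score difference, which is larger where the RNA is shortened. It was 2.45, 0.521, 0.808, 0.551 and 1.73 at 500 ppm, and 0.609, 0.594, 0.726 and 0.525 at 2000 ppm. The means were 1.21 ± 0.849 (SD, n = 5) and 0.613 ± 0.0833 (SD, n = 4). Replicates 1 and 5 at 500 ppm lay far above the other 7 arrays, which overlapped. The group difference of -0.60 was within that spread (exact two-sided permutation test over the 126 splits of 9 arrays, p = 0.294, where the smallest possible p is 0.00794). The score of a probe set followed this quantity widely: its slope passed an adjusted p of 0.05 for 14625 probe sets (47.1%), of which 11635 had a positive and 2990 a negative slope (limma, Benjamini-Hochberg). Differences between the levels are therefore reported from a fit with the 3′ minus 5′ difference as a covariate. For a named gene, the difference without the covariate is added where the 2 fits differ by more than 1.5 times or in sign, and for all of the 12 genes followed throughout and 14 further genes it is plotted.

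Spermatid transcripts were also measured in these liver samples, at levels that varied between arrays. Prm1, which encodes protamine 1, a sperm chromatin protein, scored 1.48, 2.42, 0.96, 1.50 and 2.68 at 500 ppm and 0.95, 0.85, 1.11 and 2.51 at 2000 ppm. Tnp1, which encodes transition protein 1, scored 0.12, 1.34, 0.17, 0.23 and 1.21 at 500 ppm and 0.049, -0.11, 0.33 and 1.44 at 2000 ppm. Replicates 2 and 5 at 500 ppm and replicate 5 at 2000 ppm were the high arrays for both genes, and the groups overlapped. Over all 12 measured testis markers, the mean score per array ran from 0.116 to 0.591 at 500 ppm and from 0.058 to 0.634 at 2000 ppm; 3 of the 12 markers had a mean score below 0 over all arrays. Prm1 was below 0 in 2 of the controls and in 3 triadimefon arrays. The part of these transcripts in the differences below was not tested; the differences without the 5 arrays of the series with a Tnp1 score above 0.9 are given for Cyp2b, Cyp1a1 and Scd.

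The arrays at 2000 ppm did not all lie together, and replicate 5 lay farthest from the other 3. Its nearest array over all probe sets was replicate 2 at 500 ppm, with a mean absolute score difference of 0.0483, against 0.0745 to 0.0921 to the other 2000 ppm arrays. Replicate 4 was also nearest to that array, at 0.0675 against 0.0724 to 0.0745 to its own group, and replicates 2 and 3 were nearest to each other, at 0.046. In 1803 probe sets, replicates 2, 3 and 4 at 2000 ppm all lay outside the range of the 500 ppm arrays (329 above and 1474 below). Replicate 5 lay within that range in 63.4% of them. The same share was 30.4%, 27.4% and 51.3% when replicates 2, 3 and 4 took its place. Replicate 5 at 2000 ppm and replicate 2 at 500 ppm had the lowest 3′ minus 5′ differences of their groups (0.525 and 0.521). Both had high Tnp1 scores (1.44 and 1.34). The part of either quantity in their likeness was not tested. The label of replicate 5 at 2000 ppm gives the same feeding level as those of its group. Replicate 5 was singled out by its values in these same data. Leaving it out enlarges the differences that it did not share. Values and counts without it therefore describe the arrays and do not support the differences. Differences without replicate 5 are given below for Cyp2b, Cyp1a1, Ces2c, Abcc3 and Scd. For Abcb1a, Fasn, Pklr, Apoa4, Gnmt and Them7, also described below, the differences without it were 0.44, -0.76, -0.57, -0.84, -0.71 and -0.41.

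**Figure D1:**
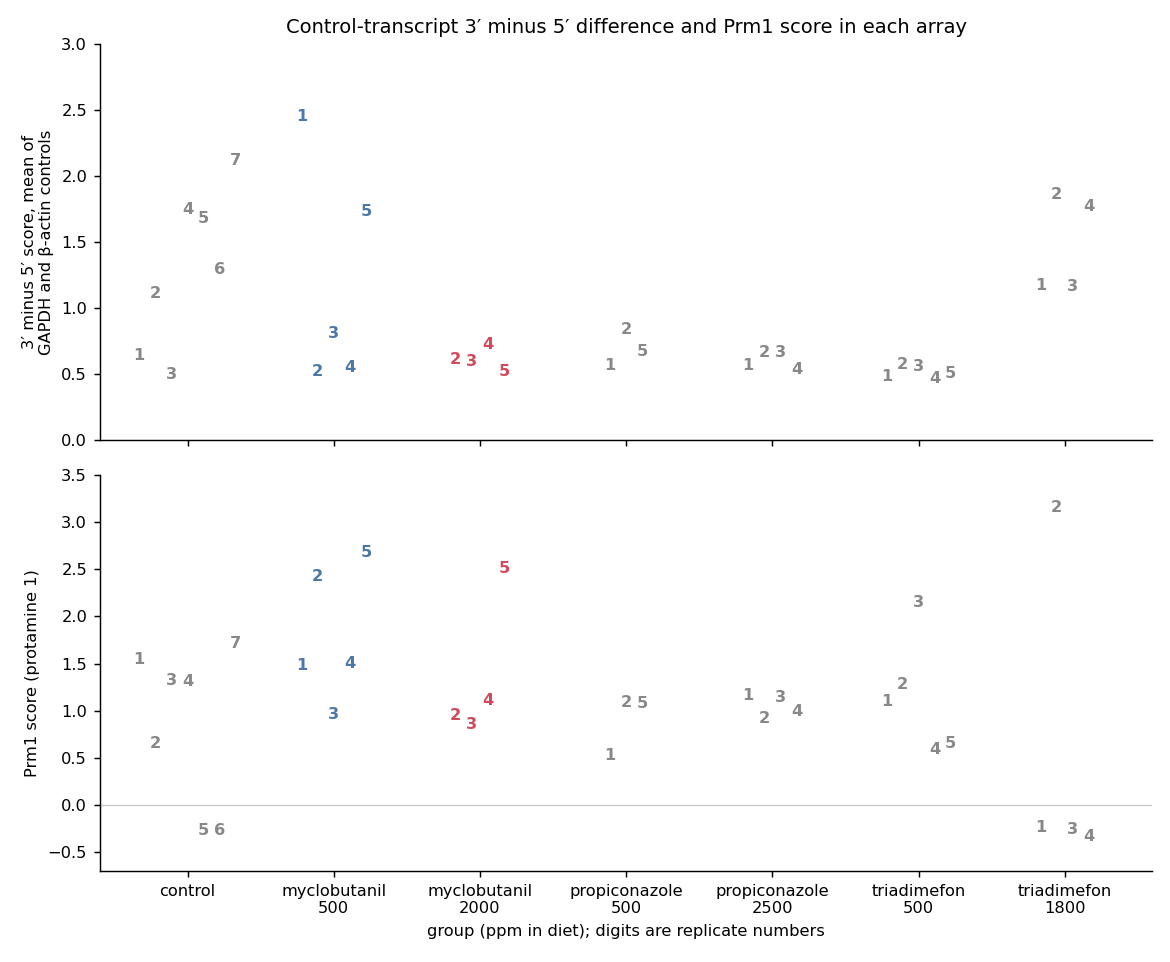
The upper panel plots the 3′ minus 5′ score difference (mean of GAPDH and β-actin) and the lower panel the Prm1 score of all 32 arrays by group, each digit being 1 array's replicate number. At 500 ppm myclobutanil, replicates 1 and 5 lie at 2.45 and 1.73 in the upper panel, and replicates 2 and 5 stand high in the lower panel, as does replicate 5 at 2000 ppm.

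No probe set passed the test between the dietary levels. Of 31042 probe sets, 0 (0%) passed an adjusted p of 0.05 in limma with the covariate, where the smallest adjusted p was 0.9999, and 0 (0%) without it, where the smallest was 0.447. At an unadjusted p under 0.05, 756 probe sets (2.44%) were counted with the covariate: 181 higher at 2000 ppm (0.583%) and 575 lower (1.85%). Without the covariate the count was 3404 (11%), with 429 higher and 2975 lower. All arrays at 2000 ppm lay above all arrays at 500 ppm in 160 probe sets (0.515%) and below them in 422 (1.36%). Without replicate 5 at 2000 ppm, again 0 passed the adjusted threshold, and 1128 (3.63%) had an unadjusted p under 0.05; without replicate 3 at 2000 ppm the count was 455. The difference of 1 probe set was known to a median 95% half-width of 0.0877, and for genes by their level to 0.0676 at mean scores below 0 and 0.472 at mean scores above 3. The genes described below did not pass the test between the levels. They are given by their values, and an interval that spans 0 does not show that the levels act alike.

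12 genes, most of them of drug metabolism, were followed whatever their values. Among them, Cyp2b had the largest difference from the controls at both levels. The probe set annotated to both Cyp2b1 and Cyp2b2, phenobarbital-inducible P450s that are the classical readout of CAR, scored 5.21, 3.46, 3.43, 3.36 and 4.34 at 500 ppm and 4.19, 4.48, 4.71 and 3.55 at 2000 ppm. The controls scored 2.14 to 3.03, median 2.60. All 9 treated arrays lay above all controls, and the treated groups overlapped, with replicate 1 at 500 ppm the highest array and replicate 5 at 2000 ppm the lowest of its group. The difference between the levels was 0.50 ± 0.335 (SE; 95% interval -0.19 to 1.19), with an unadjusted p of 0.147; it was 0.27 without the covariate, 0.71 without replicate 5 at 2000 ppm and 0.68 without the arrays of high Tnp1. Against the controls, with the covariate, Cyp2b rose by 1.98 at 2000 ppm (adjusted p = 0.0475, limma), where it and Ugt2b1 were the 2 probe sets called (0.00644%). The difference from the controls was 1.48 at 500 ppm (adjusted p = 0.114), where 0 probe sets passed (0%) and 1918 had an unadjusted p under 0.05. The call at 2000 ppm was lost when any 1 of 7 arrays was left out (500 ppm replicates 1, 2, 4 and 5, and 2000 ppm replicates 2, 3 and 4), with adjusted p from 0.0528 to 0.517, while the difference stayed between 1.75 and 2.19 over all 9 such fits.

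Cyp1a1, the P450 induced through the aryl hydrocarbon receptor, had the largest difference of the 12 genes followed here with the covariate, although Cyp2b was ahead of it without the 9 arrays of the series with a GAPDH 3′ minus 5′ difference above 0.9 (0.81 against 0.72). It scored -0.014, -0.15, 0.59, 0.017 and 0.73 at 500 ppm and 1.23, 1.45, 1.08 and -0.26 at 2000 ppm, with controls at -0.11 to 0.34, median 0.020. Replicates 2, 3 and 4 at 2000 ppm were above every control and every 500 ppm array, and replicate 5 was below them all. The difference was 0.76 ± 0.414 (SE; 95% interval -0.092 to 1.61) with an unadjusted p of 0.0783. Without replicate 5 it was 1.12 (unadjusted p = 0.011, adjusted p = 0.9998), and without the arrays of high Tnp1, replicate 5 among them, 1.08. Of 8 measured targets of that receptor, 6 had positive differences, with a median of 0.068. Aldh3a1, an aldehyde dehydrogenase, was the one member with an unadjusted p under 0.05 (-0.062), at scores below 0 in all 9 arrays.

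Ces2c, a carboxylesterase that hydrolyses ester drugs, scored 1.60, 1.36, 1.32, 1.30 and 1.35 at 500 ppm and 1.97, 2.25, 1.90 and 1.47 at 2000 ppm. Again replicates 2 to 4 at 2000 ppm lay above every 500 ppm array and replicate 5 lay within their range. The difference was 0.50 ± 0.189 (SE; 95% interval 0.11 to 0.89), with an unadjusted p of 0.0142, and it was 0.63 without replicate 5. Controls scored 0.94 to 1.40, median 1.18. Aldh1a1, the retinaldehyde dehydrogenase that CAR ligands induce, scored 3.16, 2.53, 2.14, 1.98 and 2.80 at 500 ppm and 2.76, 2.88, 3.07 and 2.64 at 2000 ppm against controls at 0.89 to 2.09, median 2.00. All arrays at 2000 ppm were above all controls, 1 array at 500 ppm was within their range, and the treated groups overlapped, at a difference of 0.39 ± 0.293 (SE; 95% interval -0.21 to 0.99).

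Cyp3a23-3a1, the rat PXR target that oxidises steroids and many drugs, and Cyp51, the sterol demethylase named above, showed intervals centred near 0. Cyp3a23-3a1 scored 6.82, 3.97, 3.81, 3.72 and 4.60 at 500 ppm and 3.92, 4.15, 4.37 and 4.01 at 2000 ppm, within 3.70 to 5.01 in the controls but for replicate 1 at 500 ppm. The difference was 0.068 ± 0.31 (SE; 95% interval -0.57 to 0.70) with the covariate and -0.47 without it. Cyp51 scored 4.70, 2.75, 2.59, 2.52 and 3.19 at 500 ppm and 2.64, 2.85, 2.70 and 2.85 at 2000 ppm, with controls at 2.67 to 3.74, median 3.21, and differed by 0.015 ± 0.209 (SE; 95% interval -0.41 to 0.44) with the covariate and -0.39 without it. The high scores of both at 500 ppm belong to replicate 1, the array with the largest 3′ minus 5′ difference. That array, also the highest in Cyp2b, had the widest spread of scores over all probe sets. Its SD was 1.02, against 0.70 to 0.86 in the other myclobutanil arrays. Por, the reductase that feeds electrons to all microsomal P450s, differed by 0.13 ± 0.174 (SE; 95% interval -0.23 to 0.48), and by -0.030 without the covariate, with overlapping scores of 0.96 to 1.92 at 500 ppm and 1.04 to 1.48 at 2000 ppm.

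Of the conjugating enzymes, Ugt2b1, a glucuronosyltransferase, scored 4.43, 3.36, 2.50, 2.73 and 3.45 at 500 ppm and 3.40, 3.60, 3.84 and 3.44 at 2000 ppm, with controls at 2.28 to 2.78, median 2.58. All 2000 ppm arrays were above all controls, replicates 3 and 4 at 500 ppm were within the control range, and replicate 1 was the highest of all. The difference was 0.52 ± 0.231 (SE; 95% interval 0.047 to 0.996), with an unadjusted p of 0.0326; without the covariate it was 0.28. Against controls Ugt2b1 rose by 1.31 at 2000 ppm (adjusted p = 0.0475, limma), a call that was lost when any myclobutanil array other than 500 ppm replicate 3 was left out (adjusted p from 0.0528 to 0.517), and differed by 0.79 at 500 ppm (adjusted p = 0.645). Gsta3 and Gstm3, glutathione transferases, differed by 0.29 ± 0.251 (SE; 95% interval -0.22 to 0.81) and 0.090 ± 0.0842 (SE; 95% interval -0.083 to 0.26), and their groups overlapped; without the covariate the difference of Gstm3 was 0.24.

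Abcc3, the basolateral pump that exports glucuronides into blood, scored 0.0064, -0.005, -0.0048, -0.055 and -0.0027 at 500 ppm and 0.32, 0.30, 0.25 and 0.0013 at 2000 ppm, with controls at -0.081 to -0.016, median -0.073. The 3 arrays at 2000 ppm that stood apart from all 500 ppm arrays were replicates 2 to 4, and replicate 5 lay at the level of the 500 ppm group. The difference was 0.24 ± 0.0926 (SE; 95% interval 0.050 to 0.43), unadjusted p = 0.0155, and 0.31 without replicate 5. Abcb1a, the P-glycoprotein drug pump, had the largest positive difference of the 18 drug transporters: 0.20, -0.021, -0.16, -0.061 and 0.16 at 500 ppm against 0.38, 0.42, 0.37 and -0.017 at 2000 ppm. Its replicates divided in the same way, and the difference was 0.35 ± 0.105 (SE; 95% interval 0.13 to 0.57), unadjusted p = 0.00251. Its second probe set differed by 0.29 (unadjusted p = 0.0059).

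Cyp4a8, a fatty acid omega-hydroxylase, was the one gene of the 12 in which all 2000 ppm arrays lay above all 500 ppm arrays. It scored 0.89, 0.95, 0.94, 0.88 and 0.76 at 500 ppm and 1.43, 1.70, 1.24 and 1.03 at 2000 ppm, with controls at 0.51 to 1.03, median 0.65. Replicate 5 was again the lowest of its group and was level with the highest control. The difference was 0.40 ± 0.218 (SE; 95% interval -0.049 to 0.85), unadjusted p = 0.079, and a second Cyp4a8 probe set differed by 0.30. Cyp4a1, another member of the family and a classical PPAR alpha target, had the opposite sign: 3.27, 2.19, 2.51, 2.34 and 2.74 at 500 ppm and 1.88, 1.86, 1.94 and 2.35 at 2000 ppm, a difference of -0.45 ± 0.204 (SE; 95% interval -0.87 to -0.029).

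**Figure D2:**
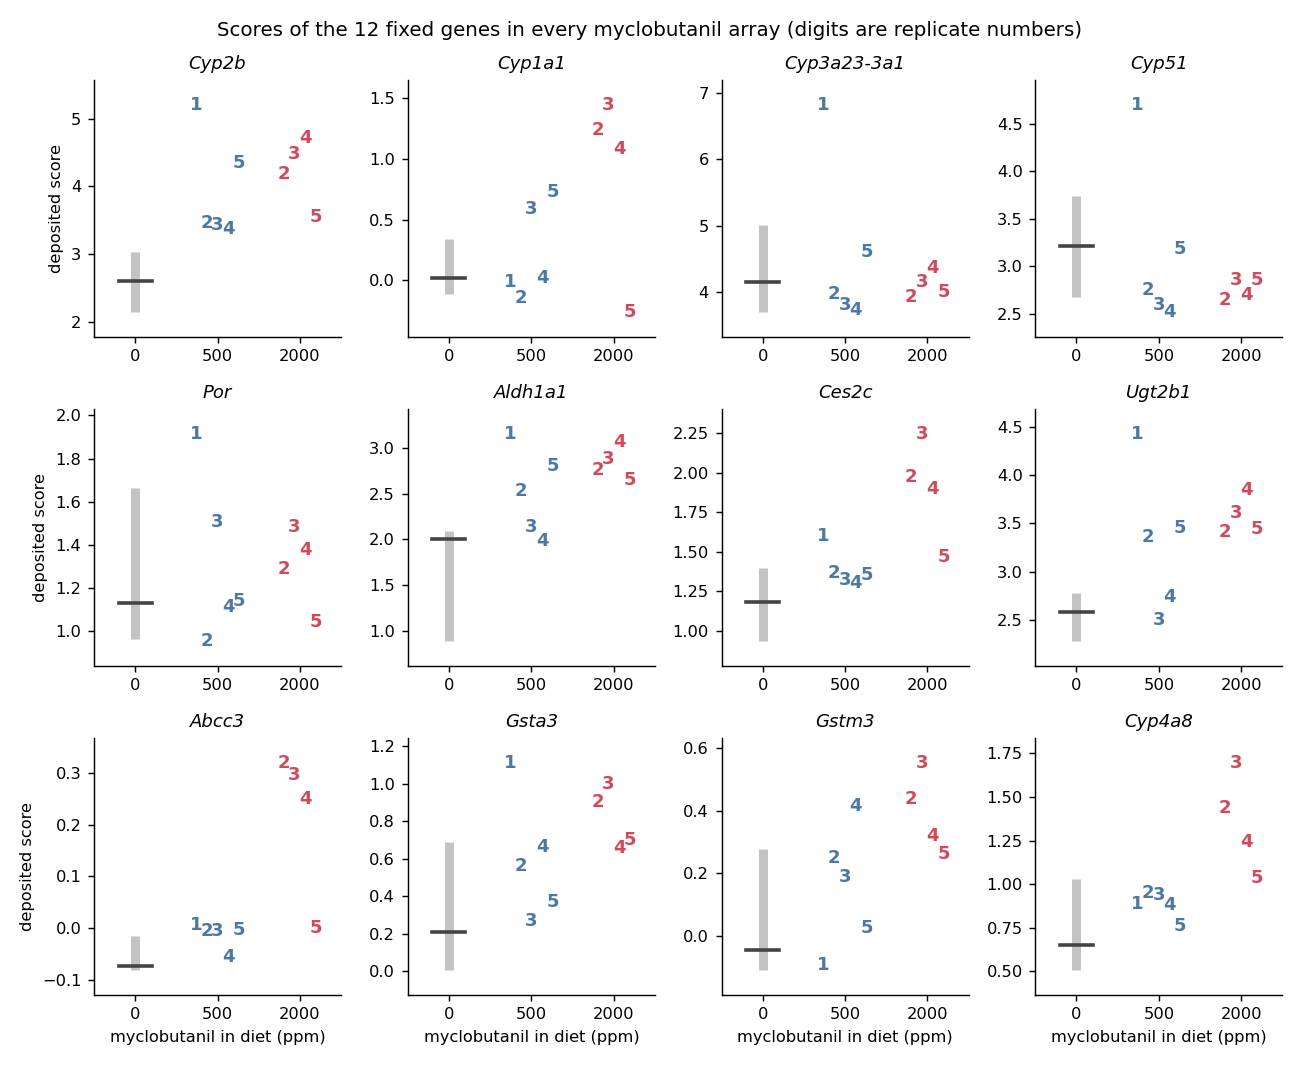
Each panel plots the deposited score of 1 gene against the myclobutanil level in the diet (0, 500 or 2000 ppm), with digits for the replicate numbers of the treated arrays and, for the 7 controls, a grey bar from lowest to highest with the median as a line. Replicates 2 to 4 at 2000 ppm stand above the 500 ppm arrays in Cyp1a1, Ces2c and Abcc3, and replicate 5 does not.

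Over the whole set of 12, 12 differences were positive with the covariate and 3 had an unadjusted p under 0.05 (Ces2c, Ugt2b1 and Abcc3), all higher at 2000 ppm, where 0.583% of all probe sets were so counted. Without replicate 5, 5 of 12 were so counted, against 0.644% of all probe sets. The set had been chosen with results of these data known, so these counts describe it and do not support it. 9 of the 12 differences were positive under every alternative; Cyp3a23-3a1, Cyp51 and Por were negative under some. Quantile normalization gives every array the same distribution of scores. After it, with the covariate, Cyp2b, Ugt2b1 and Cyp1a1 differed by 0.72, 0.69 and 0.92, and Scd, described below, by -1.35. Replicate 5 was the lowest 2000 ppm array in 8 of the 12. The mean at 2000 ppm was above the highest control in 9 of the 12 and the mean at 500 ppm in 4.

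Gene lists placed these genes among others of their pathways, and 0 members of any list passed the adjusted threshold. Over all 14217 genes, 287 (2.02%) had an unadjusted p under 0.05, 35.8% of differences were positive and the median difference was -0.015. Without replicate 5 at 2000 ppm, 529 genes (3.72%) were so counted and the median was -0.026; without the covariate the values were 1619 (11.4%) and -0.049. Of 16 measured phase I genes of CAR and PXR, 11 had positive differences, with a median of 0.034; 2 had an unadjusted p under 0.05, Ces2c and Cyp2b21 (0.12, named here after its values were seen, with scores below 0 in all 9 arrays). Without replicate 5, 9 of the 16 were positive and the median was 0.027. Cyp2b3, a constitutive relative of the inducible Cyp2b genes, was the most negative member at -0.15, and -0.49 without the covariate. The median without the covariate was -0.29, and 0.16 with 15 of 16 positive when those 9 arrays of high GAPDH difference (500 ppm replicates 1 and 5 here) were left out. The median score of this list was 3.37. In these 2 settings, all genes with mean scores above 3 had medians of -0.44 and 0.064. Phase II conjugation had 19 of 29 positive, median 0.043, from Sult1a1, a phenol sulfotransferase (-0.37, and -0.57 without the covariate), to Ugt2b1. Its members with an unadjusted p under 0.05 were Ugt2b1 and Ugt2a1 (0.24, and 0.37 without the covariate, a further glucuronosyltransferase, named after its values were seen). Targets of NRF2, the oxidant-response factor, had 14 of 20 positive, median 0.11, with Akr7a3, an aldehyde reductase, at 0.56 (unadjusted p = 0.047). Without the covariate 10 of the 20 were positive and the median was 0.0003. Drug transporters had 10 of 18 positive, median 0.0096. Cholesterol synthesis, the pathway of Cyp51, had 7 of 18 positive with a median of -0.0065 and members from -0.14 (Tm7sf2, a sterol reductase) to 0.16 (Idi1, an isomerase of the isoprenoid steps), which were -0.27 and 0.11 without the covariate. Some of these medians turned with the treatment of RNA quality: without the covariate those of phase II and of the transporters were -0.017 and -0.063, and without the arrays of high GAPDH difference that of cholesterol synthesis was 0.033 with 11 of 18 positive.

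Among 24 genes of fatty acid and triglyceride synthesis, Scd, stearoyl-CoA desaturase, which makes monounsaturated fatty acids, had the largest negative difference. It scored 4.09, 3.56, 3.16, 2.36 and 3.87 at 500 ppm and 1.51, 1.41, 1.89 and 3.66 at 2000 ppm, with controls at 2.36 to 4.16, median 3.71. Replicates 2 to 4 at 2000 ppm were below every 500 ppm array and every control, and replicate 5 was inside both ranges. The difference was -1.32 ± 0.515 (SE; 95% interval -2.37 to -0.26), unadjusted p = 0.0168; it was -1.81 without replicate 5 (unadjusted p = 0.00112, adjusted p = 0.9998), -1.57 without the arrays of high Tnp1 and -0.91 without the arrays of high GAPDH difference. Of the 24 genes, 4 had positive differences, with a median of -0.12, and 3 had an unadjusted p under 0.05, where 2.02% of all genes were so counted. Without replicate 5, which was singled out by its values, 4 were positive and the median was -0.22, beside -0.026 for all genes. Of the 24 genes, 6 then had an unadjusted p under 0.05, beside 3.72% of all genes.

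The other 2 genes of this list counted with all arrays were named after their values were seen. Fasn, fatty acid synthase, scored 3.43, 2.18, 2.18, 2.20 and 3.16 at 500 ppm and 1.53, 1.58, 1.64 and 2.23 at 2000 ppm, a difference of -0.59 ± 0.228 (SE; 95% interval -1.05 to -0.12), and -0.89 without the covariate; its second probe set differed by -0.74. Pklr, the liver pyruvate kinase, scored 2.49, 2.10, 1.88, 1.93 and 2.43 at 500 ppm and 1.42, 1.40, 1.76 and 2.17 at 2000 ppm, a difference of -0.41 ± 0.186 (SE; 95% interval -0.79 to -0.029), and its second probe set differed by -0.42. In both, replicates 2 to 4 at 2000 ppm were below all arrays at 500 ppm and below all controls, and replicate 5 was inside the 500 ppm range. Me1, malic enzyme, was the most positive member at 0.16, and the median of the list was -0.22 without the covariate and -0.063 without the arrays of high GAPDH difference.

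Apoa4, an apolipoprotein secreted on lipid particles, scored 4.60, 3.68, 3.47, 3.46 and 4.02 at 500 ppm and 2.67, 2.64, 3.21 and 3.76 at 2000 ppm, with controls at 3.68 to 4.38, median 4.00. Replicates 2 to 4 were below all other arrays of these groups and the controls, and replicate 5 was within the 500 ppm range. The difference was -0.61 ± 0.245 (SE; 95% interval -1.11 to -0.10); 3 of 17 apolipoprotein and lipoprotein assembly genes were positive, with a median of -0.090. That median was -0.48 without the covariate, and 0.044 with 10 of 17 positive without the arrays of high GAPDH difference. The median score of the list was 3.57. Of all genes with mean scores above 3, 15.8% were positive with the covariate, with a median of -0.099. Among 21 lipid droplet and fatty acid binding genes, 8 were positive, and 3 had an unadjusted p under 0.05 (7 without replicate 5), beside 2.02% of all genes (3.72% without replicate 5); 11 were positive without the arrays of high GAPDH difference. These were Fabp7, a fatty acid binding protein (0.65 ± 0.279, and 0.32 without the covariate), and, named after their values were seen, the droplet proteins Cidec (-0.35 ± 0.139) and Cideb (-0.25 ± 0.0976, and -0.60 without the covariate). Mean scores of Fabp7 were 1.98 at 500 ppm, 2.30 at 2000 ppm and 2.33 in the controls. Of 37 PPAR alpha targets, 10 were positive, and Cyp4a1 was the 1 with an unadjusted p under 0.05 (3 without replicate 5). Insig1, the sterol-regulated anchor of SREBP processing, differed by -0.48 ± 0.262 (SE; 95% interval -1.02 to 0.054), and Cyp7a1, the rate-limiting enzyme of bile acid synthesis, by -0.39 ± 0.424 (SE; 95% interval -1.27 to 0.48).

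**Figure D3:**
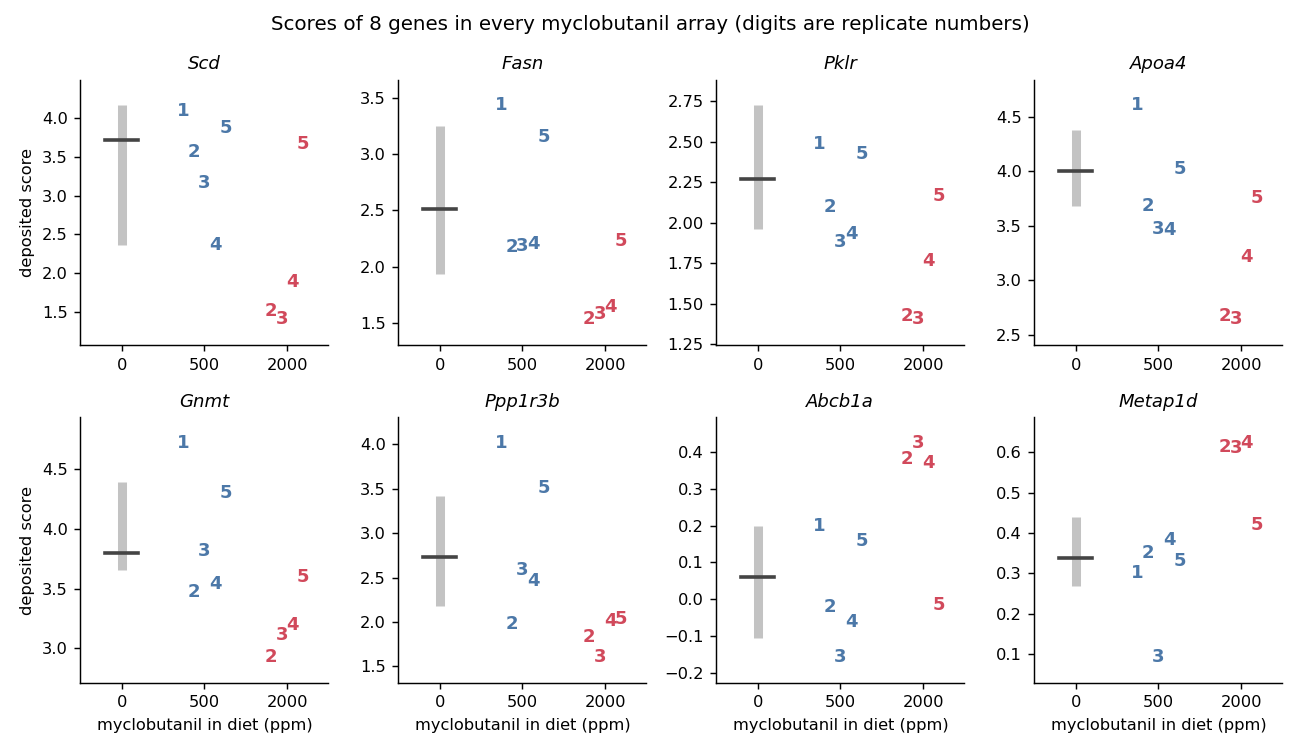
Scores of 8 genes named in the text are plotted by myclobutanil level (0, 500 or 2000 ppm), with digits for replicate numbers and a grey bar with a median line for the 7 controls. In Scd, Fasn, Pklr and Apoa4, replicates 2 to 4 at 2000 ppm lie below all 500 ppm arrays and all controls, with replicate 5 between 2.17 and 3.76, inside the 500 ppm range.

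Amino acid catabolism and the urea cycle had 0 of 25 positive differences, with a median of -0.18. The median depended on the RNA quality term: it was -0.46 without the covariate and -0.063 without the arrays of high GAPDH difference. Gnmt, glycine N-methyltransferase, which disposes of excess methyl groups, scored 4.72, 3.47, 3.81, 3.54 and 4.30 at 500 ppm and 2.93, 3.11, 3.20 and 3.59 at 2000 ppm. The groups overlapped through replicate 5, and the difference was -0.57 ± 0.269 (SE; 95% interval -1.13 to -0.020), the 1 member with an unadjusted p under 0.05 (3 without replicate 5). Mitochondrial respiratory subunits had 3 of 33 positive, with a median of -0.088, -0.36 without the covariate and -0.0015 without those arrays. The median of the acute phase genes differed in sign between these settings, at -0.065, -0.45 and 0.099. Over all genes, the median difference was more negative at higher scores: it was -0.011 below a score of 0 and -0.099 above a score of 3 with the covariate, and -0.023 and -0.44 without it. Without the arrays of high GAPDH difference the medians were -0.012 and 0.064. With the covariate, 35.1% of all genes below a score of 0 had positive differences. The share was 27.0% at scores of 2 to 3 and 15.8% above 3. Glucose metabolism had 3 of 17 positive, and its 2 members with an unadjusted p under 0.05 were Pklr and Ppp1r3b. The unfolded protein response had 5 of 25 positive and a median of -0.12, with Edem1, a degradation factor of the endoplasmic reticulum, lowest at -0.37; 0 members had an unadjusted p under 0.05 (2 without replicate 5).

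**Figure D4:**
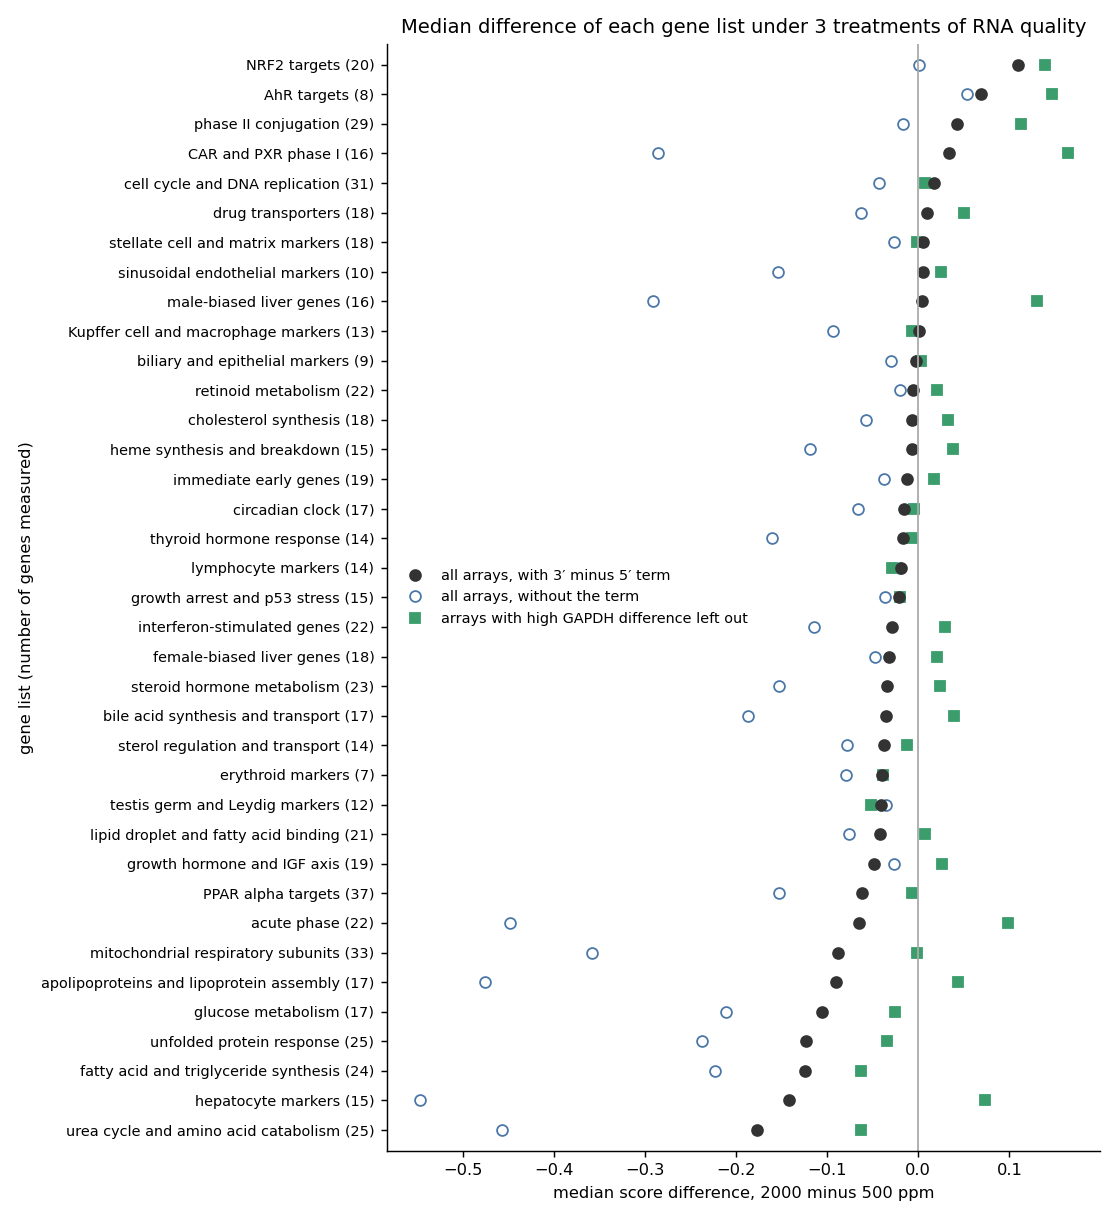
The median score difference (2000 minus 500 ppm) of each of 37 gene lists is plotted for the fit with the 3′ minus 5′ covariate (filled circles), without it (open circles), and without the arrays of high GAPDH difference (squares). The median of the hepatocyte markers moves from -0.55 to 0.074, and those of NRF2, AhR and CAR and PXR genes are positive with the covariate and without those arrays.

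By unadjusted p, 18 genes were under 0.01 both with and without the covariate, 4 higher and 14 lower at 2000 ppm; the 10 largest of the lower ones are named. Metap1d, a mitochondrial methionine aminopeptidase, scored 0.30, 0.35, 0.092, 0.38 and 0.33 at 500 ppm and 0.61, 0.61, 0.62 and 0.42 at 2000 ppm, with controls at 0.27 to 0.44, median 0.34. Its groups did not overlap, replicate 5 was nearest to the 500 ppm arrays, and the difference was 0.31 ± 0.0849 (SE; 95% interval 0.13 to 0.48), unadjusted p = 0.00128. Htatip2, an oxidoreductase-like protein that promotes apoptosis, differed by 0.25 ± 0.0734 (SE; 95% interval 0.095 to 0.40), with 2000 ppm scores of 0.99, 1.02, 1.05 and 0.92 against 0.62 to 0.93 at 500 ppm; replicate 1 at 500 ppm lay just above replicate 5 at 2000 ppm. Tnrc6a, an Argonaute partner in microRNA silencing, differed by 0.16 ± 0.0558 and Arhgap28 by 0.10 ± 0.0337, both without overlap. Their other probe sets did not share these differences: the other 3 of Tnrc6a differed by 0.037, 0.014 and -0.00039, and the other 3 of Arhgap28 by -0.074 to -0.023. The probe set that stood for Arhgap28 had scores below 0 in all 9 arrays. For the probe set that stood for Tnrc6a, the 2000 ppm scores lay within the control range of 0.31 to 0.59.

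Among the lower genes, Ppp1r3b, the subunit that brings protein phosphatase 1 to glycogen, had the largest difference. It scored 4.02, 1.98, 2.58, 2.46 and 3.51 at 500 ppm and 1.83, 1.60, 2.01 and 2.03 at 2000 ppm, with controls at 2.18 to 3.42, median 2.74. The 2 highest arrays at 500 ppm were replicates 1 and 5, those of high 3′ minus 5′ difference, and replicate 2 at 500 ppm lay within the 2000 ppm range. The difference was -0.63 ± 0.223 (SE; 95% interval -1.08 to -0.17) with the covariate and -1.04 without it; its second probe set differed by -0.24 with and 0.048 without the covariate. Ppard, the nuclear receptor PPAR delta, scored 1.34, 0.71, 0.86, 0.85 and 1.20 at 500 ppm and 0.55, 0.54, 0.60 and 0.72 at 2000 ppm. Its groups touched only where replicate 2 at 500 ppm met replicate 5 at 2000 ppm, and the difference was -0.23 ± 0.0727 (SE; 95% interval -0.38 to -0.076), and -0.39 without the covariate, while its second probe set, of mean score below 0, differed by -0.030. Steap3, a ferrireductase of iron uptake, and Dexi, a dexamethasone-induced transcript, differed by -0.25 ± 0.0882 (SE; 95% interval -0.43 to -0.066) and -0.24 ± 0.0857 (SE; 95% interval -0.42 to -0.064), and by -0.37 and -0.45 without the covariate. Them7 differed by -0.31 ± 0.111, with 0.98, 1.02, 1.19 and 1.48 at 2000 ppm against 1.25 to 1.73 at 500 ppm, replicate 5 being the array inside that range. The remaining 5 differences were small: Zfp672 (-0.16), Ddx28, a mitochondrial helicase (-0.13), Zfp865 (-0.096), Ntsr2, a neurotensin receptor (-0.089), and Hk2, a hexokinase (-0.087). Ntsr2 and Hk2 had scores below 0 in all 9 arrays, and second probe sets of Ddx28 and Zfp865 differed by -0.033 and 0.020.

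**Figure D5:**
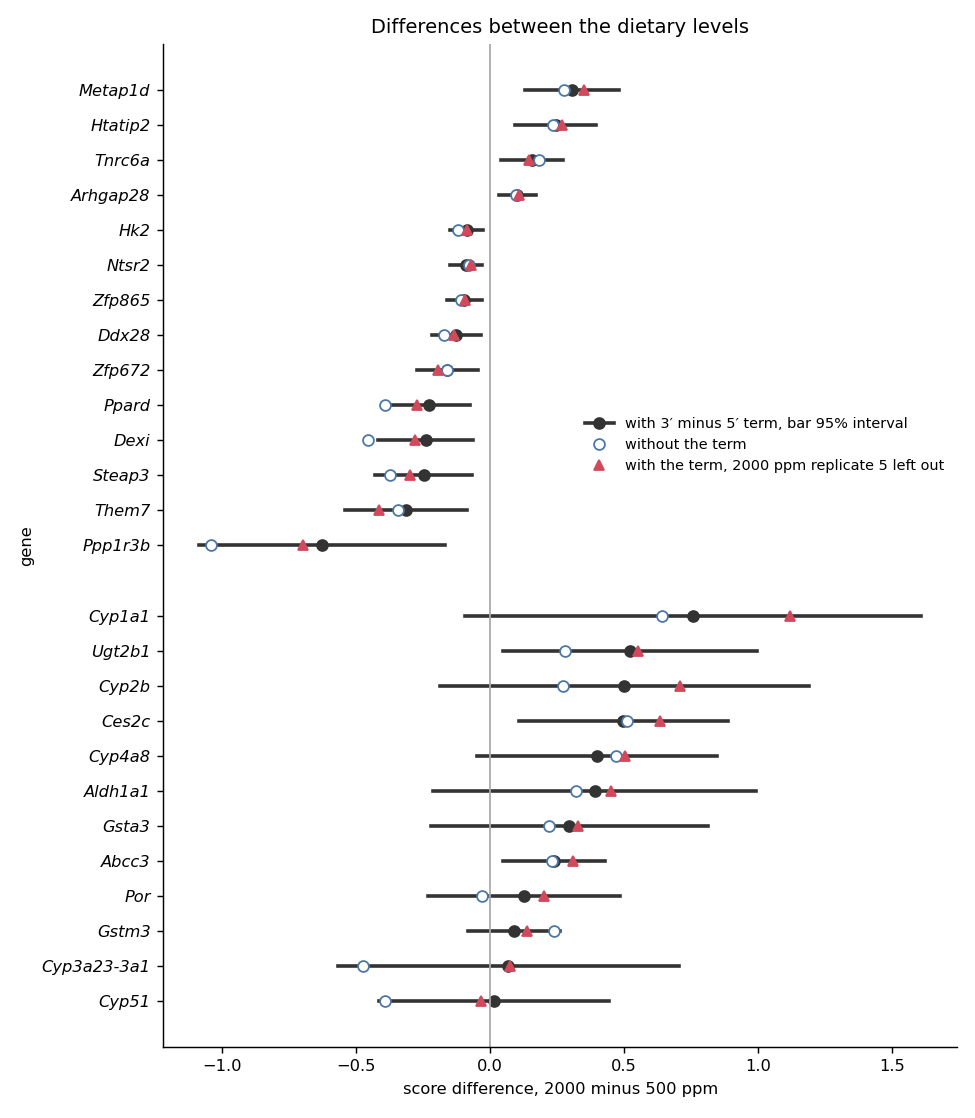
Score differences (2000 minus 500 ppm) are plotted for 14 genes with an unadjusted p under 0.01 in both fits (the 4 higher and the 10 largest of the 14 lower, upper block) and the 12 genes followed throughout (lower block), as filled circles with 95% intervals from the fit with the covariate, open circles without it, and triangles without replicate 5 at 2000 ppm. The triangle of Cyp1a1 lies at 1.12 against 0.76 with all arrays, and the open circles of Cyp3a23-3a1 and Cyp51 lie at -0.47 and -0.39.

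In lists of stress and signalling genes, members with an unadjusted p under 0.05 were again counted beside 2.02% of all genes. Of 22 interferon-stimulated genes 3 were counted: Psmb9, an immunoproteasome subunit (-0.23, and -0.47 without the covariate), and, named after their values were seen, Stat2 (-0.15 and -0.27) and Oas1b (-0.074 and -0.13). The second probe set of Stat2 differed by -0.063, and Oas1b had scores below 0 in all 9 arrays. Of 15 growth arrest and p53 stress genes 2 were counted, Sesn2 (-0.28, and -0.57 without the covariate) and Phlda3 (-0.24), also named after their values were seen; the second probe set of Sesn2 differed by -0.022. Of 19 immediate early genes, Klf6, a zinc finger factor (0.18, and 0.069 without the covariate), and Fosb (-0.084, named after its values were seen, with scores below 0 in all 9 arrays) were counted. Igfbp1, which binds insulin-like growth factors, scored 0.46, 0.51, 0.42, 0.28 and 0.34 at 500 ppm and 0.84, 0.64, 0.95 and 0.54 at 2000 ppm. These did not overlap, and the difference was 0.40 ± 0.226 (SE; 95% interval -0.062 to 0.87). The Igfbp1 controls scored 0.44 to 1.02, median 0.53, a range that held all 2000 ppm arrays. Against the controls, with the covariate, Igfbp1 differed by -0.25 at 500 ppm and by 0.15 at 2000 ppm. Klf6 scores at 2000 ppm were also within the range of their controls, 0.35 to 0.76. Cell cycle genes had 19 of 31 positive with a median of 0.017, and 0 members had an unadjusted p under 0.05. Without the covariate 6 were positive, the median was -0.044 and 3 had an unadjusted p under 0.05. Over all genes without the covariate, 22.3% were positive, the median was -0.049 and 11.4% were so counted.

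Markers of other liver cells had medians as follows, beside -0.015 for all genes: 0.00035 for Kupffer cells and macrophages (7 of 13 positive), 0.0056 for stellate cells (11 of 18), 0.0055 for sinusoidal endothelium (5 of 10), -0.018 for lymphocytes (4 of 14), -0.0029 for biliary epithelium (3 of 9) and -0.040 for erythroid cells (0 of 7). Without the covariate these 6 medians were all negative, from -0.15 for sinusoidal endothelium to -0.020 for lymphocytes. Over all arrays, mean scores were below 0 for 9 of 14 lymphocyte, 7 of 9 biliary and 3 of 7 erythroid markers. The same held for 1 of 13 Kupffer cell, 3 of 18 stellate cell and 0 of 10 endothelial markers. In whole liver, fewer cells of a type and less RNA per cell cannot be told apart. Hepatocyte markers had a median of -0.14 with 2 of 15 positive; it was -0.55 with 1 positive without the covariate, and 0.074 with 11 positive without the arrays of high GAPDH difference. Glul, glutamine synthetase of the cells around the central vein, was the 1 member with an unadjusted p under 0.05 and was named after its values were seen. It differed by -0.33 ± 0.129 (SE; 95% interval -0.60 to -0.068), and by -0.55 without the covariate. Its other 2 probe sets differed by -0.36 and -0.38 with the covariate, and by -0.29 and 0.30 without it. The mean score of the hepatocyte markers ran from 3.57 to 5.72 at 500 ppm and from 3.42 to 3.98 at 2000 ppm. Of all genes with mean scores above 3, 15.8% were positive with the covariate, with a median of -0.099. Testis markers had 1 of 12 positive with a median of -0.041, and Prm1 differed by -0.33 ± 0.6 (SE; 95% interval -1.56 to 0.91).

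The other triazoles were fed at different levels, so that their values are given side by side and not compared. Between 2500 and 500 ppm of propiconazole, Cyp1a1 differed by 1.05, Aldh1a1 by 1.15, Ces2c by 0.78, Cyp2b by 0.77, Abcc3 by 0.36 and Scd by -0.94. None passed the adjusted threshold in that comparison, where limma called 0 probe sets (0%) and 555 had an unadjusted p under 0.05. Between 1800 and 500 ppm of triadimefon, where 88 probe sets were called (0.283%), Ces2c rose by 1.36 (adjusted p = 0.00145), Abcc3 by 0.74 (adjusted p = 0.000573), Aldh1a1 by 1.54 (adjusted p = 0.0337) and Metap1d by 0.42 (adjusted p = 0.0462). Cyp2b (1.07), Cyp1a1 (1.17), Scd (-1.09) and Cyp4a8 (-0.0098) did not pass there. The 3′ minus 5′ difference did not overlap between these groups (0.469 to 0.577 at 500 ppm and 1.16 to 1.86 at 1800 ppm), so that level and RNA quality cannot be told apart in them. Without the covariate, a fit added for triadimefon after seeing the data, 7690 probe sets were called (24.8%); Ces2c, Abcc3, Aldh1a1 and Metap1d again passed, and so did Cyp2b (1.44, adjusted p = 0.0063) and Cyp1a1 (1.37, adjusted p = 0.0164).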

How the data were processed

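Per the labels' protocols, biotin-labelled RNA of individual livers was applied to Affymetrix arrays of the rat genome. The authors deposited 1 score per probe set and array; its summary method, normalization, log base and centring are not stated in the sources used here. The design foresaw log2 values; the test was run on the deposited scores as they are, so that a difference is a score difference. Precision is limited by the number of arrays.

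After removal of 57 Affymetrix controls, 31042 probe sets remained. By the platform annotation 20826 of them had 1 gene symbol, 436 several and 9780 none, and 20758 matched the rat RefSeq gene table. For each of 14217 genes, the probe set of highest mean score stood for the gene. Listed genes without such a probe set were not used here.

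The 32 arrays of all 7 groups were fitted together by limma 3.58.1 in R 4.3.3 (data.table, version 1.17.8, read the files), which left 24 residual degrees of freedom. The covariate was the centred 3′ minus 5′ score difference, the mean of GAPDH and β-actin. Tests were two-sided and adjusted by the Benjamini-Hochberg method over all 31042 probe sets, with an adjusted p threshold of 0.05, and intervals are 95% confidence intervals. The 3′ minus 5′ difference itself was compared by an exact permutation test. The script was tested on simulated data.

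The members, the 12 genes followed throughout and the 37 gene lists were chosen with earlier results of these data known. Genes were named by a rule: the 12 genes; genes with an unadjusted p under 0.01 with and without the covariate, up to 10 per direction; and the most positive and most negative member of a list. Others are marked as named after their values were seen. Samples with the same replicate number did not all deviate together (correlations of 0.071, 0.36, -0.34 and 0.12 for replicates 2 to 5), so the groups were not paired. As a look for repeats of 1 library, the smallest mean absolute difference between 2 arrays of a group was 0.0763 at 500 ppm and 0.046 at 2000 ppm. Known repeats of 1 library were not available for reference, so these values cannot decide it.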

Additional observations from a re-analysis of the deposited data

Results flagged for a closer look

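In 12 of 127 groups of values looked at (62 named genes, and the 3′ minus 5′ difference, in the arrays of 1 group), 1 array lay far from the others by Dixon's criterion; chance alone marks about 1 in 20 such groups, and genes of 1 array are not independent. Replicate 1 at 500 ppm was such an array for Cyp3a23-3a1 (6.82, next array 4.60), Cyp2b3 (6.33, next 4.25), Tm7sf2 (3.11, next 2.14) and Ces2c (1.60, next 1.36); it also had the largest 3′ minus 5′ difference, 2.45. That array also had the widest spread of scores over all probe sets, with an SD of 1.02. Replicate 3 at 500 ppm was low for Metap1d (0.0925, next 0.30), and replicate 4 at 500 ppm was low for Abcc3 (-0.0554, next -0.0050). Replicate 5 at 2000 ppm was low for Metap1d (0.421, next 0.611) and for Abcb1a (-0.0168, next 0.37). The same array was high for Cyp4a1 (2.35, next 1.94), Fasn (2.23, next 1.64) and Prm1 (2.51, next 1.11). Replicate 4 at 2000 ppm was high for Akr7a3 (3.09, next 2.60).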

How the results depend on the processing

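The count of 0 probe sets past an adjusted p of 0.05 was the same under all 21 alternatives: 20 set out at the start and 1 chosen after seeing the data (without the 5 arrays with a Tnp1 score above 0.9). The smallest adjusted p in any of them was 0.324, with array weights. The number of probe sets with an unadjusted p under 0.05 depended more on the setting. It was 756 with the covariate, 3404 without it, 914 without the arrays of high GAPDH difference, 1071 and 2689 after quantile normalization with and without the covariate, 836 and 1707 in the 9 myclobutanil arrays alone with and without it, 2623 with array weights, 305 without the dimmest 40% of probe sets and 1092 without the arrays of high Tnp1. Leaving out 1 array at a time gave 455 (without 2000 ppm replicate 3) to 1128 (without 2000 ppm replicate 5). With a replicate block, 0 probe sets passed and 656 had an unadjusted p under 0.05. The cause of these differences was not tested. Of 62 named genes, 55 kept their sign under every alternative. The other 7 were Cyp3a23-3a1, Cyp51, Por, Cth, Cyp2b3, Ndufa6 and Sdhb. The genes had been named by their values in these arrays or chosen with results known. The kept signs therefore describe them and do not support their differences. Of 37 list medians, 8 kept their sign: those of AhR and NRF2 targets were positive, and those of fatty acid synthesis, glucose metabolism, the unfolded protein response, amino acid catabolism, lymphocytes and erythroid cells negative. That of NRF2 targets was as low as 0.0003, without the covariate. The median over all probe sets tested was itself negative in every setting, from -0.035 to -0.0019. Against the controls, over the 10 alternatives that keep the controls and leave out no single array, Cyp2b passed in 9 and Ugt2b1 in 6 at 2000 ppm, and Cyp2b in 3 and Ugt2b1 in 0 at 500 ppm. The 3′ minus 5′ difference between the groups ran from -0.77 to -0.29 with 1 array left out. With 4 against 5 arrays, the median half-width of the unadjusted 95% interval of a probe set was 0.0877, which is not a detection limit: differences as large as that of Scd (-1.32) did not pass the adjusted threshold.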
